A study of Mus musculus with 4 samples.

Results

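The cells described here are the plaque cells in which a transcript of Cdkn2a, the gene of the cell cycle inhibitor p16, was counted. A plaque cell was taken as a Cdkn2a cell where at least 1 unique molecular identifier (UMI, a tag that marks 1 captured mRNA molecule) fell to the gene, which held for 105 of 2431 plaque cells, 49 from the ApoE-/- library and 56 from the Trf2T188A/ApoE-/- library. The other 2326 plaque cells, 1453 and 873 in the same order, are called zero cells. The cells were thus chosen by their own Cdkn2a value, and all Cdkn2a values are given as a description. All 4 libraries of the series hold 12790 cells.

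Both plaque libraries came from C57Bl/6 mice carrying Myh11-CreERt2, Confetti and the ApoE-/- alleles. Tamoxifen labelled smooth muscle cells and their descendants with a Confetti fluorescent protein before a high fat diet was given, and the Cre transgene is expressed in males only. Trf2T188A/ApoE-/- mice also carried Sm22a-Trf2T188A, a mutant of the telomere protein TRF2 under a minimal Sm22a promoter that is active in arterial smooth muscle. Plaques of the aortic root, aortic arch and carotid arteries were digested, and the authors kept clusters that expressed the reporter. Carotid arteries taken 28 days after ligation, from wild-type control and SM22a-TRF2T188A mice, gave the other 2 libraries, which carry no ApoE deletion. There was 1 library per genotype and the number of mice in a library was not given in the sources used here, so no difference between genotypes could be tested, and genotype cannot be told apart from library.

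p16 binds the cyclin D-dependent kinases CDK4 and CDK6, keeps the retinoblastoma protein unphosphorylated, and so holds cells before DNA replication. Its transcript accumulates in many senescent cells, which have left the cell cycle for good and often secrete cytokines and proteases. Vascular smooth muscle cells (VSMCs) in plaques can lose contractile proteins and take on fibroblast-like ("fibromyocyte") or cartilage-like states. The Cdkn2a gene lies on chromosome 4 at chr4:89274471-89294653 (GRCm38, minus strand) and has 2 first exons: exon 1 of Cdkn2a-201 is at chr4:89281986-89282192 and exon 1 of Cdkn2a-202 at chr4:89294334-89294653. Both transcripts continue into the same second exon, chr4:89276645-89276985, and a last exon that begins at the same base, in different reading frames that give p16 and p19Arf. The libraries read the 3' end of mRNA, so these products cannot be told apart, and "Cdkn2a" below means either.

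The plaque libraries held 37869934 and 24064570 UMIs, with 3012 to 108796 and 1909 to 109305 UMIs per cell. No cell barcode was shared between the plaque libraries, and 1 or 2 were shared by any plaque and any ligation library. Of leukocyte and endothelial genes, Ptprc, Adgre1, Cd3e and Cldn5 had no UMI in any Cdkn2a cell. They were rare in zero cells too, with Ptprc in 2 and 3 and Cldn5 in 5 and 2. Cdh5 had UMIs in 1 ApoE-/- and 2 Trf2T188A/ApoE-/- Cdkn2a cells, against 1 and 3 zero cells. Csf1r was found in 7 and 5 Cdkn2a cells against 31 and 17 zero cells, and Tek in 4 and 2 against 9 and 5. Any of 7 endothelial markers was found in 51.0% and 30.4% of Cdkn2a cells and 43.2% and 38.6% of all zero cells. Pecam1 was seen in 22 of 49 and 13 of 56 Cdkn2a cells but also in 591 of 1453 and 324 of 873 zero cells. Cd68, a macrophage gene that other cells also transcribe, had a UMI in 10 of 49 and 4 of 56 Cdkn2a cells and in 57 of 1453 and 30 of 873 zero cells. A UMI of any of the 11 macrophage and leukocyte markers was found in 59.2% and 50% of Cdkn2a cells, against 21.7% and 31.6% of all zero cells and 42.5% and 39.6% of zero cells matched on detected genes as described below. Of these 11 markers and 7 endothelial markers, 1 each was detected often enough to be tested against all zero cells, and neither passed the fold used below. Of 6 adventitial fibroblast markers C7 was found in no Cdkn2a cell, but Pdgfra was found in 30 and 39 Cdkn2a cells against 349 and 268 zero cells, and Dpt in 32 and 21 against 238 and 159. Any of the 6 was found in 77.6% and 83.9% of Cdkn2a cells, against 42.1% and 48% of all and 60% and 59.3% of matched zero cells. The part of such cells or of their free RNA in the results below was not tested. A Confetti reporter UMI was found in 81.6% and 83.9% of Cdkn2a cells and in 83.6% and 85.5% of zero cells.

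Cdkn2a was counted at 1 UMI in about as many cells as at more than 1. In ApoE-/- plaques 24 cells had 1 UMI, 12 had 2 to 4 and 13 had 5 or more, up to 25 UMIs in a cell. In Trf2T188A/ApoE-/- plaques 27 cells had 1 UMI, 24 had 2 to 4 and 5 had 5 or more, up to 14. The 13 ApoE-/- cells of 5 or more UMIs held 73.8% of the 210 Cdkn2a UMIs of their library, and the 5 Trf2T188A/ApoE-/- cells held 31.5% of 130. Relative to all UMIs of the cell, Cdkn2a ran from 0.141 to 3.41 UMIs per 10000 with a median of 0.489 in ApoE-/- cells, and from 0.105 to 2.54 with a median of 0.410 in Trf2T188A/ApoE-/- cells. A single UMI in the deepest zero cell would have been worth 0.0919 and 0.0915 UMIs per 10000, just below the lowest Cdkn2a cell of each library.

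Cdkn2a cells made up 3.26% of ApoE-/- plaque cells (exact binomial 95% interval 2.42 to 4.29) and 6.03% of Trf2T188A/ApoE-/- plaque cells (4.59 to 7.76). After thinning every cell to 8000 UMIs, which left out 92 and 122 shallower cells, the shares were 1.21% (17 of 1410 cells, interval 0.704 to 1.92) and 2.60% (21 of 807, interval 1.62 to 3.95). These intervals cover counting error only and do not include variation between mice.

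Cdkn2a was concentrated in cells with a fibromyocyte pattern. The plaque cells were clustered without Cdkn2a, and 11 of 12 clusters were named from marker lists, so the names were rebuilt here and are not the authors' annotation. Of fibromyocyte-like cells (led by Timp1, Spp1, Thbs1, Lum and Col1a1), 31 of 162 in the ApoE-/- library (19.1%, interval 13.4 to 26.0) and 34 of 129 in the Trf2T188A/ApoE-/- library (26.4%, 19.0 to 34.8) had a Cdkn2a UMI. Chondrocyte-like cells (Col2a1, Ibsp, Cytl1, Chad) followed with 8 of 81 (9.88%, 4.36 to 18.5) and 11 of 63 (17.5%, 9.05 to 29.1). Complement/acute-phase-like cells had shares of 3.64% (4 of 110) and 6.1% (5 of 82). Within each library the intervals of fibromyocyte-like and chondrocyte-like cells overlapped.

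**Figure D1:**
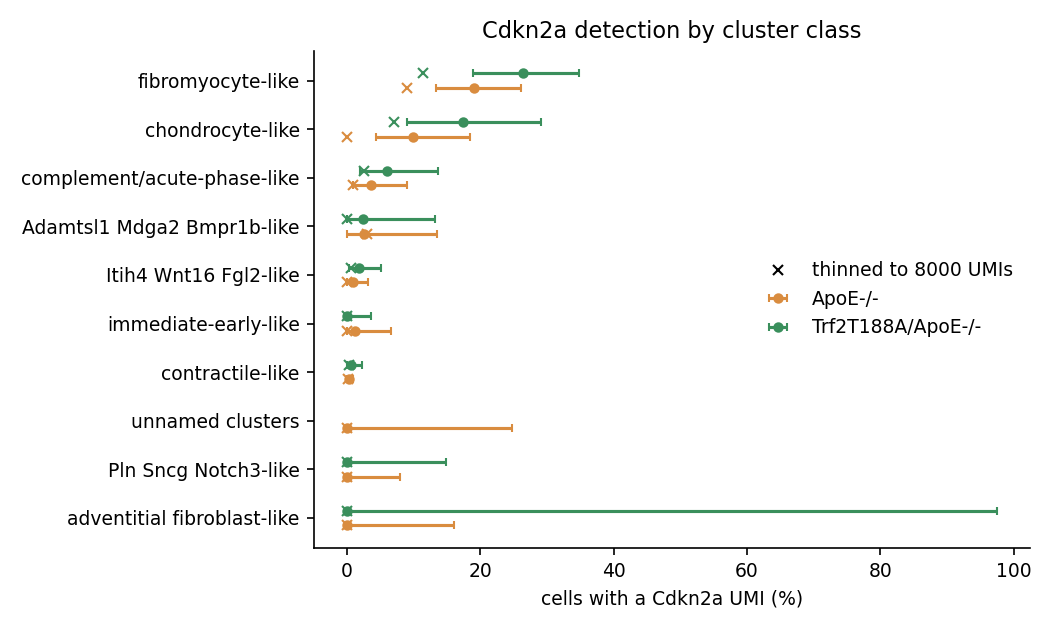
Percent of cells with a Cdkn2a UMI (horizontal axis) in each class of clusters, for the ApoE-/- library and the Trf2T188A/ApoE-/- library. Points are shares with exact binomial 95% intervals, crosses are shares after thinning each cell to 8000 UMIs, and fibromyocyte-like cells stand highest at 19.1% and 26.4%.

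Contractile-like cells were taken as a class of little p16 for comparison. This was an assumption, and background UMIs were not measured. In this class 2 of 729 (0.274%, 0.0332 to 0.987) and 2 of 323 (0.619%, 0.0751 to 2.22) cells had a Cdkn2a UMI, at median depths of 21375 and 23902 UMIs per cell. The fibromyocyte-like classes were deeper, at 34295.5 and 28524 UMIs. Thinned to 8000 UMIs the shares were 8.97% and 11.5% in fibromyocyte-like cells against 0.140% and 0.346% in contractile-like cells. Itih4 Wnt16 Fgl2-like cells, at 2 of 221 (0.905%, 0.110 to 3.23) and 3 of 168 (1.79%, 0.370 to 5.13), had intervals that overlapped those of contractile-like cells. None of 44 and 23 Pln Sncg Notch3-like cells had a Cdkn2a UMI, which at 3 counts allows shares of up to 6.82% and 13.0%. Cells of 5 or more Cdkn2a UMIs were fibromyocyte-like in 12 of 13 and 2 of 5 cases. The rest were chondrocyte-like (1 and 2) or complement/acute-phase-like (1 in the Trf2T188A/ApoE-/- library).

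Detection followed depth. Ordered by UMIs per cell and split in 5 equal parts, the share of ApoE-/- plaque cells with Cdkn2a was 0.664% in the shallowest part and 11.0% in the deepest, and that of Trf2T188A/ApoE-/- cells 0.538% and 16.1%. Among fibromyocyte-like cells of the deepest part, 22 of 83 (26.5%) and 15 of 36 (41.7%) had a Cdkn2a UMI, so most deep fibromyocyte-like cells still had none. Cdkn2a cells had median totals of 55182 and 38374 UMIs against 22436 and 23788 in zero cells, and 6828 and 6060.5 detected genes against 5061 and 5149. Each Cdkn2a cell was therefore also set against the 5 zero cells of its library nearest in detected genes (159 and 218 different cells, median 6821 and 6059.5 genes), and against the 5 nearest of its library and cluster (141 and 146 different cells). Total UMIs remained higher in Cdkn2a cells after matching, at 55182 against 43333 and 38374 against 34206, and within clusters against 47128 and 36016.5.

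For each gene the mean number of UMIs per 10000 was compared between Cdkn2a cells and zero cells of the same library as a log2 ratio after adding 1. A gene was called where it was detected in at least 10% of either class in both libraries and was past 0.5 on this log2 scale, in the same direction, in both. This is a rule of size and not a test. Because 1 was added, a gene with a mean far below 1 UMI per 10000 in both classes could not be called. Against all zero cells 126 of 11339 genes were called higher (1.11%) and 237 lower (2.09%). Against zero cells matched on detected genes 35 of 11711 genes were called higher (0.299%) and 130 lower (1.11%). Within clusters 3 of 11631 were called higher (0.0258%) and 5 lower (0.043%). As an alternative, edgeR's quasi-likelihood test on UMI sums with library as a block, at an adjusted p under 0.05, called 662 genes higher (5.65%) and 759 lower (6.48%) at matched depth, and 38 (0.327%) and 48 (0.413%) within clusters. The median log2 ratio over all genes tested was -0.0076, -0.0079 and -0.0058 in the 3 comparisons.

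The contractile apparatus was lower in Cdkn2a cells. Of 14 contractile genes, 12 were called lower against all zero cells and 12 against matched zero cells, where 1.11% of all genes were called lower, and the list's median log2 ratio was -1.53 and -1.18. Myh11, the smooth muscle myosin heavy chain, averaged 5.04 UMIs per 10000 in ApoE-/- Cdkn2a cells against 16.1 in matched zero cells (log2 ratio -1.50), and 3.85 against 24.4 in the Trf2T188A/ApoE-/- library (-2.39). Per cell Myh11 ran from 0 to 45.5 UMIs per 10000 with a median of 0.264 in ApoE-/- Cdkn2a cells, and from 0 to 29.8 with a median of 0.270 in Trf2T188A/ApoE-/- ones. The medians of matched zero cells were 7.59 and 20.6, so the classes differed in their middle but overlapped in range.

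Genes of the same apparatus showed the pattern at different sizes. Acta2, smooth muscle actin, had log2 ratios of -0.63 and -1.62, Tagln (an actin-binding protein) -0.70 and -1.46, and Cnn1 (calponin) -0.87 and -1.83. Myl9, a regulatory light chain of myosin, had means of 6.72 against 15.1 and 6.44 against 24.2. Lmod1, which nucleates actin filaments, had 2.20 against 5.96 and 2.63 against 8.42, and Synpo2, a protein of actin bundles, 1.29 against 4.10 and 1.16 against 4.87. Myocd, the coactivator that drives contractile transcription, had log2 ratios of -0.67 and -0.74. The remaining 2 genes were not called: Des had -0.27 and -0.35, and Actg2 went opposite ways with 0.35 and -0.46.

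Summed over the 14 genes, contractile transcripts took 1.14 to 572 UMIs per 10000 of an ApoE-/- Cdkn2a cell, with a median of 39.6, and 1.76 to 515 with a median of 24.9 in the Trf2T188A/ApoE-/- library. The medians were 371 and 300 in all zero cells, 123 and 270 in matched zero cells, and 56.9 and 16.4 in zero cells matched within clusters. Of the Cdkn2a cells, 37 of 49 and 47 of 56 were below the matched median, but 27 of 49 and 27 of 56 were below the median of the zero cells matched within clusters, pooled over clusters. Some Cdkn2a cells were therefore as contractile as the zero cells.

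**Figure D2:**
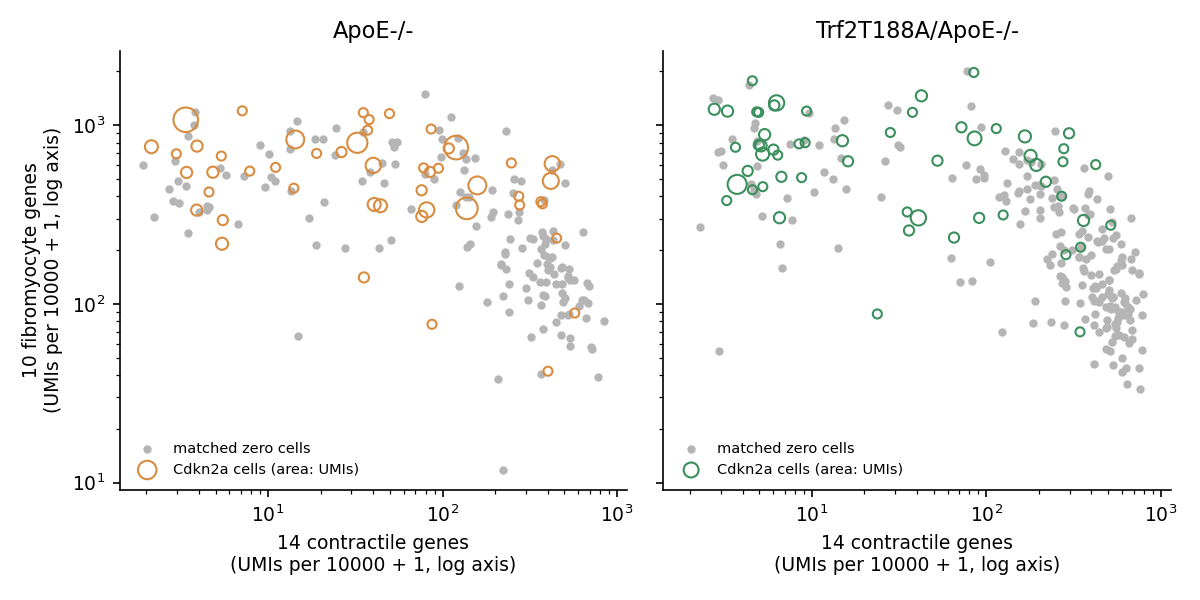
Summed UMIs per 10000 of 14 contractile genes (horizontal, log axis, 1 added) against 10 fibromyocyte genes (vertical, log axis, 1 added), 1 point per cell, in each plaque library. Open circles are Cdkn2a cells with area by Cdkn2a UMIs and grey points are matched zero cells; 40 of 49 and 52 of 56 Cdkn2a cells lie above the fibromyocyte median of the matched zero cells.

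The 12 most negative genes, ranked by the smaller of the libraries' differences, included 8 outside the contractile list. Itga8, an integrin chain of smooth muscle, averaged 3.06 against 10.1 and 2.68 against 13.3. Dmd (dystrophin), Dstn (an actin-severing protein), Sparcl1, Itih4, Cped1, Ccn3 and the metallothionein gene Mt1 were the others. Mt1, which encodes a metal-binding protein, averaged 7.24 against 17.2 and 7.93 against 19.7, and it was detected in 91.8% and 94.6% of Cdkn2a cells, so its level and not its detection differed. Itih4 and Sparcl1 had a median of 0 in Cdkn2a cells of both libraries.

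Fibromyocyte genes were higher in Cdkn2a cells than in all zero cells, and fewer of them passed the fold once depth was matched. Of the 10 genes, 9 were detected often enough to be tested, and Tcf21, a transcription factor of the state, was not, with UMIs in 6.12% and 5.36% of Cdkn2a cells. Against all zero cells 7 of 9 were called higher (median log2 ratio 1.26), where 1.11% of all genes were. Against matched zero cells 2 of 9 were (median 0.83), where 0.299% of all genes were: Col1a1 and Col3a1, the genes of fibrillar collagens I and III. All 9 were above 0 in the mean of both libraries in these comparisons, but the matched medians were 0.35 in the ApoE-/- and 1.39 in the Trf2T188A/ApoE-/- library.

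Col1a1 averaged 82.2 UMIs per 10000 in ApoE-/- Cdkn2a cells against 33.2 in matched zero cells (log2 ratio 1.28), and 59.6 against 14.2 in the Trf2T188A/ApoE-/- library (1.99). Its per-cell range was 1.28 to 275 with a median of 73.5 in the former and 0 to 618 with a median of 21.9 in the latter, against zero-cell medians of 9.23 and 6.57. Nearly every cell of both classes contained Col1a1, so the difference was in its amount. Col3a1 averaged 56.1 against 32.7 (0.76) and 50.7 against 26.6 (0.91). Tnfrsf11b, which encodes the RANKL decoy receptor osteoprotegerin, had 4.85 against 3.15 (0.49, just under the fold) and 8.24 against 2.39 (1.45). Fn1 (fibronectin) had log2 ratios of 0.35 and 1.57, Dcn (decorin) 0.48 and 1.98, Lum (lumican) 0.17 and 1.39, and Fmod (fibromodulin) 0.16 and 1.23, each under the fold in the ApoE-/- library. Summed over the list, ApoE-/- Cdkn2a cells had 41.1 to 1204 UMIs per 10000 with a median of 547, against 335 in matched zero cells. Trf2T188A/ApoE-/- Cdkn2a cells had 68.8 to 1974 with a median of 676, against 222.

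The 12 highest genes by the same ranking are named here with their roles. Of these, Col1a1, Col1a2, Col3a1, Col8a1 and Col12a1 encode collagens, Pcolce an enhancer of procollagen processing, Thbs1 the matricellular protein thrombospondin 1 and Mmp2 and Mmp14 matrix metalloproteinases. Thbs1 averaged 13.4 against 5.21 (log2 ratio 1.22) and 5.82 against 1.28 (1.58), and it was detected in 83.7% and 75.0% of Cdkn2a cells against 42.1% and 33.9% of matched zero cells. Mmp14, the membrane-bound activator of MMP2, had 4.62 against 1.76 (1.03) and 2.96 against 1.2 (0.85), and Mmp2 4.16 against 1.86 (0.85) and 3.84 against 1.27 (1.09). Tmsb10, an actin monomer-binding thymosin, had 7.91 against 3.47 and 5.62 against 2.33. The remaining 2 were Spp1 and Hp.

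**Figure D3:**
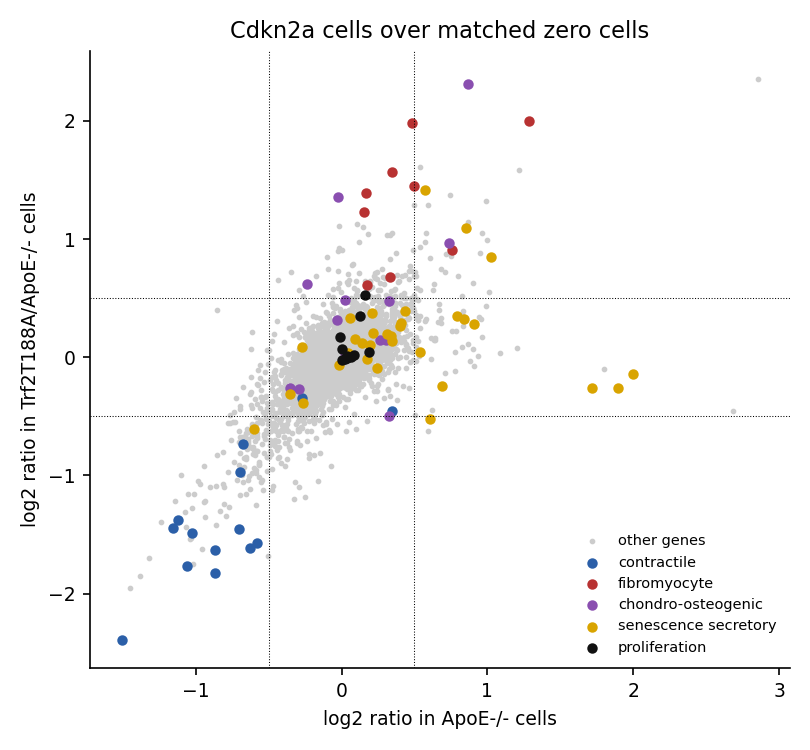
Log2 ratio of Cdkn2a cells over zero cells matched on detected genes in the ApoE-/- library (horizontal axis) against the Trf2T188A/ApoE-/- library (vertical axis), 1 point per gene tested, with 5 gene lists in colour and dotted lines at -0.5 and 0.5. Contractile genes lie at the lower left with 12 of 14 past both lines, and Col1a1, Col3a1, Spp1 and Ibsp are the fibromyocyte and chondro-osteogenic genes past both at the upper right.

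Hp (haptoglobin, a haemoglobin-binding acute-phase protein) had the largest mean ratio of the genes called at matched depth, and most cells of either class had none. Its mean was 11.5 UMIs per 10000 in ApoE-/- Cdkn2a cells against 0.733 in matched zero cells (log2 ratio 2.86), and 7.40 against 0.640 in the Trf2T188A/ApoE-/- library (2.36). The median was 0 in both classes and libraries, and 19 of 49 and 26 of 56 Cdkn2a cells had a UMI. A single ApoE-/- cell at 440 held 77.9% of the Hp of its class, and without it the mean was 2.60 and the log2 ratio 1.06. In the Trf2T188A/ApoE-/- library the highest cell held 20.7% and the ratio without it was 2.09. Hp was detected in 38.8% and 46.4% of Cdkn2a cells against 17.6% and 21.1% of matched zero cells.

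Cartilage and bone genes were higher than in all zero cells, but most were not called at matched depth. Of 15 chondro-osteogenic genes, 9 of 12 tested were called higher against all zero cells (median log2 ratio 0.84), where 1.11% of all genes were. Against matched cells 2 of 13 were (median 0.20), where 0.299% of all genes were: Spp1 (osteopontin) and Ibsp (bone sialoprotein). Spp1 averaged 62.4 against 33.8 (0.87) and 148 against 28.9 (2.32). Its per-cell range was 0 to 731 with a median of 1.12, and 0 to 1021 with a median of 13.5, so a minority of cells set the means. Ibsp averaged 22.4 against 13.0 and 11.9 against 5.64, with 48% and 35% of its sum in 1 cell, and without that cell its log2 ratios were -0.12 and 0.42. Sox9, the transcription factor of cartilage, was detected in 77.6% and 75.0% of Cdkn2a cells against 59.1% and 58.7% of matched zero cells, with log2 ratios of 0.024 and 0.49. Runx2, which drives bone differentiation, was detected in 59.2% and 50% against 22% and 17.4%, at means of 0.379 and 0.294 UMIs per 10000.

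The other CDK inhibitor genes were not called in any of the 3 comparisons. With 1 added, Cdkn2b could not be called higher at its mean of 0.265 UMIs per 10000 in Trf2T188A/ApoE-/- Cdkn2a cells. Cdkn2b, which encodes p15 and lies next to Cdkn2a, had the highest detection relative to matched zero cells. Its mean was 0.460 UMIs per 10000 against 0.139 in matched zero cells (log2 ratio 0.36) and 0.265 against 0.102 (0.20). It was detected in 61.2% of ApoE-/- Cdkn2a cells (interval 46.2 to 74.8) against 30.8% of matched zero cells (23.7 to 38.6) and 34.0% of zero cells matched within clusters (26.3 to 42.5). In the Trf2T188A/ApoE-/- library the shares were 55.4% (41.5 to 68.7), 24.8% (19.2 to 31.0) and 25.3% (18.5 to 33.2). Thinned to 8000 UMIs they were 26.5%, 10.1% and 12.8%, and 27.3%, 8.45% and 8.51%, so Cdkn2b was more frequent beside Cdkn2a at equal depth. The thinned intervals of Cdkn2a and matched cells overlapped in the ApoE-/- library (14.9 to 41.1 and 5.86 to 15.8) and did not in the other (16.1 to 41.0 and 5.09 to 13.0). By number of Cdkn2a UMIs, Cdkn2b was found in 11 of 24, 9 of 12 and 10 of 13 ApoE-/- cells of 1, 2 to 4 and 5 or more. In the Trf2T188A/ApoE-/- library it was found in 13 of 27, 15 of 24 and 3 of 5. These classes were not matched on depth, and cells with more Cdkn2a UMIs had higher median totals. Mtap, which lies on the other side of Cdkn2a, had log2 ratios of 0.13 and 0.12 at detection shares of 81.6% and 78.6% against 69.2% and 68.8%. Cdkn1a, which encodes p21, a target of p53, was detected in 79.6% and 67.9% of Cdkn2a cells against 65.4% and 61.0%, with log2 ratios of 0.27 and 0.080, and against all zero cells it was nearest to the fold of these genes, at 0.93 and 0.38. Cdkn1b, Cdkn1c, Cdkn2c and Cdkn2d had log2 ratios between -0.29 and 0.22.

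The targets of p16 and genes of DNA replication showed no called difference at matched depth. Many of them had means too low to be called after 1 was added. Examples are Cdk2, at 0.0570 and 0.0584 UMIs per 10000 in Cdkn2a cells, and Mcm6, at 0.265 and 0.251. Of 15 genes of the CDK4/6-Rb pathway 13 were tested and none was called (median log2 ratio 0.031). Ccnd1 (cyclin D1), the partner of CDK4 and CDK6, was called higher against all zero cells, and against matched cells had 0.42 and 0.69, with detection in 57.1% and 46.4% of Cdkn2a cells against 22% and 8.26%. Cdk4 had 0.18 and 0.15, Cdk6 0.20 and 0.22, and Rb1 -0.20 and -0.096. Of 18 proliferation genes 12 were tested and none was called (median 0.035). Summed per cell they took 0.278 to 64.9 UMIs per 10000 with a median of 1.99 in ApoE-/- Cdkn2a cells and 0.315 to 43.1 with a median of 1.57 in Trf2T188A/ApoE-/- ones, against 1.53 and 1.51 in matched zero cells. A few Cdkn2a cells were thus high in these genes and most were at the level of the zero cells.

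A UMI of Mki67 or Top2a, 2 genes of dividing cells, was present in 13 of 49 ApoE-/- Cdkn2a cells (26.5%, interval 14.9 to 41.1), against 12.6% of matched zero cells (7.86 to 18.8) and 14.2% within clusters (8.88 to 21.1). In the Trf2T188A/ApoE-/- library the shares were 17.9% (8.91 to 30.4), 4.13% (1.90 to 7.69) and 11.6% (6.93 to 18). After thinning they were 16.3%, 6.92% and 7.80%, and 3.64%, 0.939% and 4.26%. A Cdkn2a UMI did therefore not mark the absence of these transcripts, and within clusters the thinned shares pointed in opposite directions in the 2 libraries.

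No gene was called against matched cells in the lists that follow. They cover the p53 response, Polycomb and other regulators of the Cdkn2a locus, and the senescent nucleus and lysosome. Bcl2 family survival and the shelterin complex that holds TRF2 are the others. The lists' median log2 ratios against matched cells were, in this order, 0.0044 over 17 genes, -0.012 over 14, 0.0045 over 7, -0.068 over 4 and -0.0031 over 7. Single genes went both ways in the mean of both libraries. They ran from -0.43 to 0.41 for p53 targets and from -0.10 to 0.51 for the Polycomb and locus regulator list. That list also holds Kdm6b, Ets1, Ets2, Id1, Jun and Junb, which are not Polycomb proteins. Junb averaged 20.0 against 11.2 and 16.7 against 14.2. Per cell, the summed nuclear and lysosomal genes were below the matched zero median in 35 of 49 and 33 of 56 Cdkn2a cells, and the Bcl2 family genes in 28 of 49 and 40 of 56. Lmnb1, the lamin whose loss is used as a sign of senescence, had 0.052 and -0.034. Glb1, the gene of lysosomal beta-galactosidase, had -0.10 and 0.043. Loss of Lmnb1 and gain of lysosomal beta-galactosidase are both used as signs of senescence. The median and sum of their list therefore have no single expected direction. Kdm6b, a demethylase that removes the Polycomb mark, had 0.22 and -0.29.

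Secreted factors of senescent cells were mixed. Of 48 genes of the list 32 were tested against matched cells, 3 were called higher (Mmp2, Mmp3 and Mmp14) and 1 lower (Igfbp5), where 0.299% and 1.11% of all genes were, and the median log2 ratio was 0.25. Mmp3 rested on single cells, and without the highest its ratios were 0.26 and 0.92. Il1a and Il1b had almost no UMI: Il1a was found in 1 of the 105 Cdkn2a cells and Il1b in none. Il6, the most used marker of this secretion, was detected in 12 of 49 ApoE-/- and 6 of 56 Trf2T188A/ApoE-/- Cdkn2a cells, against 10.1% and 9.17% of matched zero cells. Igfbp7 had log2 ratios of 0.042 and 0.037. Igfbp5 averaged 0.332 against 1.02 and 0.436 against 1.18.

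Among the chemokine genes of the list, Cxcl1, Cxcl2 and Ccl2 had high ratios in the ApoE-/- library only. Cxcl1, which attracts neutrophils, averaged 13.9 UMIs per 10000 in ApoE-/- Cdkn2a cells against 3.52 in matched zero cells (log2 ratio 1.72), but 3.01 against 3.80 in the Trf2T188A/ApoE-/- library (-0.26). Cxcl2 had 12.7 against 2.43 (2.0) and 1.83 against 2.12 (-0.15), and the monocyte attractant Ccl2 4.56 against 0.490 (1.90) and 0.436 against 0.718 (-0.26). Cxcl10 had 0.61 and -0.52, while Cxcl12 (0.090 and 0.15), Cxcl14 (0.055 and 0.33) and Cxcl16 (0.34 and 0.18) were above 0 in both libraries and under the fold. For the first 3 genes the ApoE-/- difference was largest in cells with the most Cdkn2a. In the 13 cells of 5 or more UMIs Cxcl1 averaged 27.7 with a median of 18.4 (0 to 76.1), against 9.58 in cells of 1 UMI and 7.56 in cells of 2 to 4, and Ccl2 averaged 12.4 with a median of 7.88, against 0.915 and 3.30. In these 13 cells Cxcl1, Cxcl2 and Ccl2 were detected in 11, 10 and 10 cells. The 5 Trf2T188A/ApoE-/- cells of 5 or more UMIs averaged 4.18 for Cxcl1, 1.62 for Cxcl2 and 0.234 for Ccl2. Most ApoE-/- cells of this class were fibromyocyte-like (12 of 13) but only 2 of 5 of the other library were, and libraries differ in mice as well as genotype, so genotype, class and library cannot be told apart in this difference.

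Of 22 genes of the TGFb pathway, Thbs1 was called higher and Ltbp1 and Ltbp4, which anchor latent TGFb in the matrix, lower against matched cells, where 0.299% of all genes were called higher and 1.11% lower. Ltbp1 averaged 2.72 against 6.28 and 3.37 against 8.22. The receptor genes Tgfbr1, Tgfbr2 and Tgfbr3 had log2 ratios between -0.39 and -0.044 and were not called. Of 12 complement and acute-phase genes tested, Hp was called higher and Serping1 (C1 inhibitor) lower, against the same shares of all genes, and the list's median was 0.0017.

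Within clusters few differences were left. Contractile genes, called 12 of 14 times before, were called 0 of 14 times, and their median log2 ratio was -0.0020. By edgeR's quasi-likelihood test within clusters Myh11 was lower, at a log2 ratio of -1.03 and an adjusted p of 0.0288. Synpo2 (-0.85), Lmod1 (-0.50) and Myl9 (-0.26) had adjusted p of 0.0967, 0.247 and 0.503 by this test. Outside the list, Itga8 (-1.15) and Sparcl1 (-1.57) had 0.0312 and 0.0114, while Dmd (-0.87) and Dstn (-0.43) had 0.0894 and 0.306. Fibromyocyte genes were called 0 of 9 times at a median of 0.018. The cells of the ApoE-/- library kept more Col1a1 (82.2 against 41.1, log2 ratio 0.98) and Thbs1 (1.01), but in the Trf2T188A/ApoE-/- library these were 0.031 and 0.20. The clusters were built from these genes among others, so a difference within clusters is one that the clustering did not absorb.

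**Figure D4:**
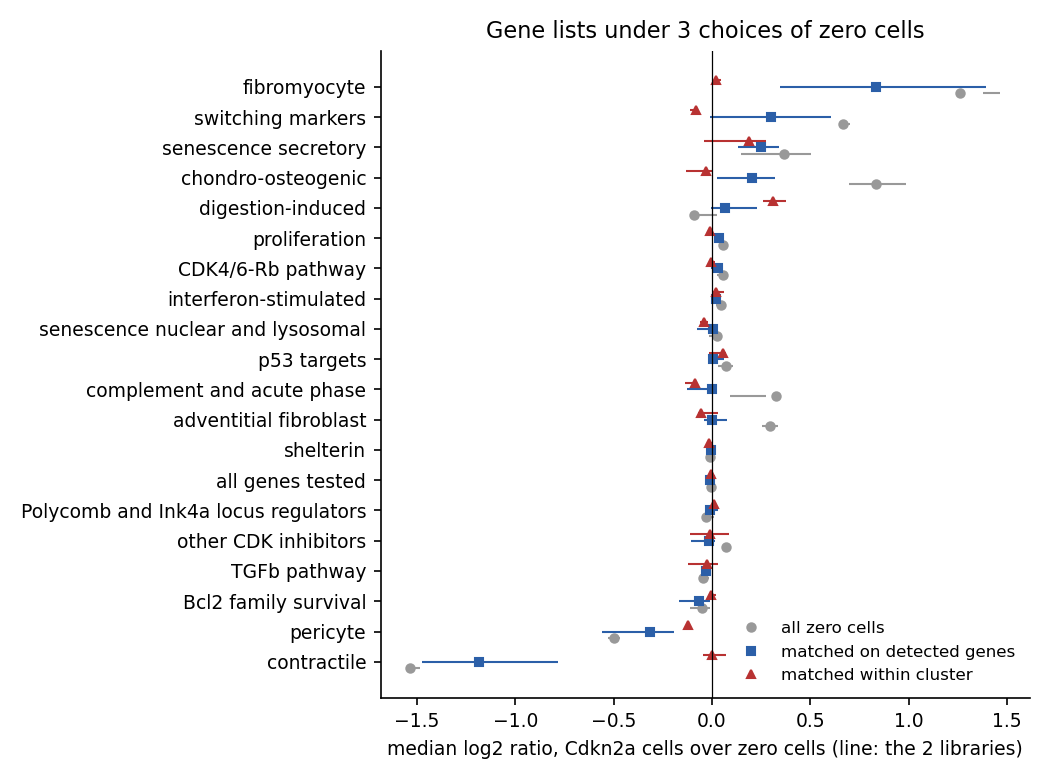
Median log2 ratio of Cdkn2a cells over zero cells (horizontal axis) for each gene list, against all zero cells, zero cells matched on detected genes and zero cells matched within cluster. Symbols are medians of the mean of both libraries and lines join the 2 libraries' own medians; the contractile list moves from -1.53 and -1.18 to -0.0020, and the fibromyocyte list from 1.26 and 0.83 to 0.018.

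Genes called higher within clusters were Hp, Tmsb10 and Tgfb2. Tmsb10 averaged 7.91 against 4.11 (log2 ratio 0.80) and 5.62 against 3.36 (0.60). In ApoE-/- cells it averaged 4.64, 7.55 and 14.3 at 1, 2 to 4 and 5 or more Cdkn2a UMIs, and in Trf2T188A/ApoE-/- cells 4.40, 6.47 and 8.08, although the median of the 5 cells in the last class was 0.972. These classes were not matched with each other. In ApoE-/- cells their median totals were 30879.5, 57338 and 67983 UMIs, and 12 of 24, 7 of 12 and 12 of 13 cells were fibromyocyte-like. Tgfb2, a ligand of the TGFb receptors, averaged 4.97 against 2.26 (0.87) and 2.61 against 1.46 (0.55), with per-cell maxima of 59.6 and 15.0. Without the highest cell of the Cdkn2a class these ratios were 0.57 and 0.46. Hp had 3.04 and 0.92, and without the highest cell 1.24 and 0.65.

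Genes called lower within clusters were Mt1, Mt2, Igfbp5, Alcam and Chad. Mt1 averaged 7.24 against 17.8 (log2 ratio -1.19) and 7.93 against 19.3 (-1.19), and Mt2, its neighbour in the metallothionein cluster, 2.33 against 6.20 (-1.11) and 2.33 against 6.01 (-1.07). The Mt1 medians were 2.86 against 4.92 and 3.94 against 7.95, a smaller gap than that of the means, because some zero cells reached 329 and 289 while no Cdkn2a cell passed 43.9 and 45.4. Alcam, a cell adhesion molecule, averaged 1.98 against 3.83 (-0.70) and 2.27 against 5.61 (-1.02). Igfbp5 had -0.72 and -0.80, with UMIs in 9 of 49 and 13 of 56 cells. Chad (chondroadherin, of cartilage matrix) had -0.68 and -0.65, with UMIs in 11 and 9 cells and 48.7% and 86.6% of its sum in 1 cell. By edgeR's quasi-likelihood test on UMI sums of the 2 classes, with library as a block, 6 of these 8 genes had an adjusted p under 0.05, from 0.0211 for Mt2 to 0.0475 for Igfbp5. Tgfb2 had an adjusted p of 0.0749 and Hp of 0.194 by the same edgeR test. This test has 2 libraries of different genotype as its replicates.

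**Figure D5:**
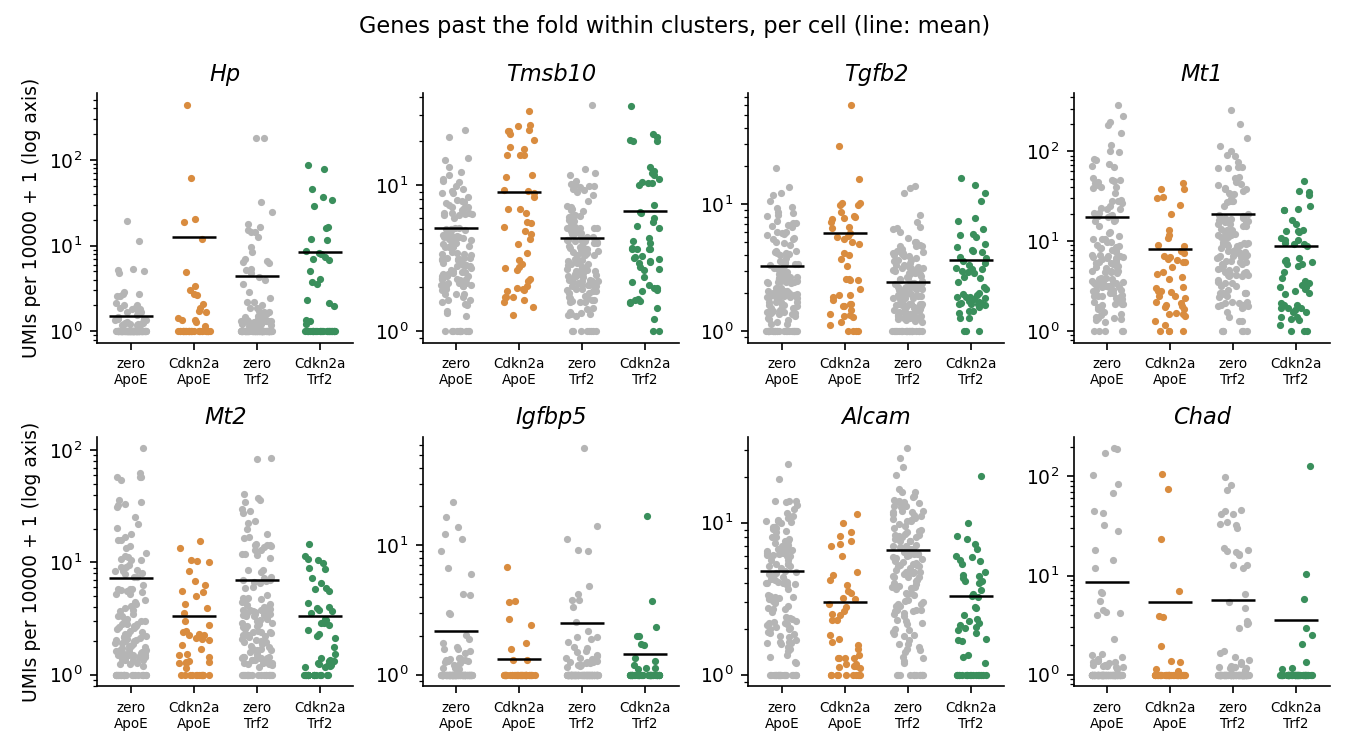
UMIs per 10000 (vertical, log axis, 1 added) of the 8 genes called within clusters, 1 point per cell, for Cdkn2a cells and zero cells of the same library and cluster; the black line is the mean. Tmsb10, Tgfb2 and Hp have higher means in Cdkn2a cells of both libraries and Mt1, Mt2, Igfbp5, Alcam and Chad lower ones, with wide overlap between single cells.

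Mitochondrially encoded transcripts were lower in Cdkn2a cells. They took a median of 1.28% of UMIs in ApoE-/- Cdkn2a cells against 2.45% in all, 2.07% in matched and 1.85% in same-cluster zero cells. In the Trf2T188A/ApoE-/- library the medians were 1.30% against 1.82%, 1.78% and 1.84%. The difference was largest in cells with the most Cdkn2a: at 5 or more UMIs the median sum was 75.1 UMIs per 10000 (19.4 to 184) against 169 in zero cells of the same clusters in ApoE-/- plaques, and 1.75 (0.390 to 55.7) against 156 in Trf2T188A/ApoE-/- plaques. In cells of 1 UMI it was 131 against 196 and 197 against 184. Transcripts of cytosolic ribosomal proteins were higher in cells of 5 or more Cdkn2a UMIs, at medians of 1134 against 681 and 1072 against 909. Total UMIs per cell were also higher, with medians of 67983 and 55027 at 5 or more Cdkn2a UMIs against 30879.5 and 29932 at 1, and whether RNA quality has a part in these differences was not tested. Genes induced by tissue digestion, such as Fos and Junb, were not called. Within clusters all 16 of the list were above 0 in the mean of both libraries (median log2 ratio 0.31), where 5277 of 11631 genes tested were. Matched on detected genes 10 of 16 were above 0 (median 0.068), and against all zero cells 7 of 16 (median -0.089). The signal thus differed by the choice of zero cells, and its part in the other differences was not tested.

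Between genotypes, 7 of 8511 genes were past 1 on the log2 scale higher in Trf2T188A/ApoE-/- than in ApoE-/- Cdkn2a cells (0.0822%) and 13 lower (0.153%). With 1 library each these are values without a test. The 5 highest were Mmp3, Clu, Spp1, Bpifb1 and Lum. Clu (clusterin, an extracellular chaperone) averaged 37.3 UMIs per 10000 (8417 UMIs in all, Poisson 95% interval 8238 to 8599) against 13.4 (3090, 2982 to 3201), a log2 ratio of 1.41, while in matched zero cells it was 0.34. Mmp3 (stromelysin) had 4.85 against 0.916 (1.61, and 0.77 in matched zero cells), with 36.2% and 41.3% of its sum in 1 cell. Spp1 had 1.23 and Lum 1.11, against -0.22 and -0.11 in matched zero cells. For Bpifb1 1 cell held 91.5% of the Trf2T188A/ApoE-/- sum.

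The 5 lowest were Saa3, Cxcl2, Ccl2, Cxcl1 and Col2a1, of which 3 are the chemokine genes above. Their log2 ratios between genotypes were -2.28 for Cxcl2, -1.95 for Ccl2 and -1.89 for Cxcl1, against -0.13, 0.21 and 0.086 in matched zero cells. Saa3, an acute-phase protein, had -2.64, with 96.6% of the ApoE-/- sum in 1 cell. Col2a1, the collagen of cartilage, averaged 17.6 against 60.0 (-1.72), and it was also lower in the matched zero cells of this genotype (-0.89). Contractile genes had a median of -0.11 between the genotypes in Cdkn2a cells and 0.47 in matched zero cells, and fibromyocyte genes 0.41 and -0.29.

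Cells of the ligated carotid libraries, which had no part in choosing the genes above, were compared by the same log2 ratio. They were matched on detected genes only and not within clusters, so the part of cell state in these ratios was not tested. Unlike in plaques, cells with a UMI of a leukocyte or endothelial gene were left out. After leaving out 528 and 818 cells with a UMI of Ptprc, Cdh5 or Pecam1, 256 control and 336 Trf2T188A cells had a Cdkn2a UMI and were matched with 1021 and 1316 zero cells on detected genes. All 12 genes named as higher in plaques were higher in both ligation libraries (median log2 ratios 0.49 and 0.49), and 5 were past the fold in both: Col1a1 (1.02 and 0.97), Col1a2, Pcolce, Mmp2 (1.01 and 0.96) and Col3a1. Hp, largest in plaques, was nearly absent, with UMIs in 0.781% and 1.19% of cells. Its log2 ratios were 0.077 and 0.0020, so its direction carries little weight. Of the 12 named as lower, 10 were lower in both (medians -0.29 and -0.30) and only Sparcl1 was past the fold (-1.34 and -1.65), with Myh11 at -0.41 and -0.38 and Mt1 at 0.065 and -0.12. Of the genes called higher within plaque clusters, Tmsb10 and Tgfb2 were higher in both libraries, and Hp was near the floor. Of the 5 lower genes 2 were lower in both by small amounts. They were Mt2 (-0.097 and -0.076) and Igfbp5 (-0.039 and -0.21). Contractile genes had medians of -0.21 and -0.19, with 12 of 14 lower in both, and 7 of the 9 fibromyocyte genes listed were higher in both. The share of all genes that went the same way in the ligation libraries was not determined, so these counts have no background beside them.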

How the data were processed

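Single-cell libraries were made by the authors with the 10x Genomics Single Cell 3' v3 kit. Submitters' processing notes name Cell Ranger 6.1.2 and 7.0.0, Seurat 3.2.1 and 4.3.0, R 3.6.2 and 4.2.2, and GRCm38. The deposited signal was UMIs per 10000 per cell on a linear scale, after the authors had filtered cells and kept reporter-expressing plaque clusters; each value was a whole number of UMIs within 0.01 (100% of values), so counts were recovered. Members, gene lists (23 lists, 280 genes) and tests were chosen with earlier results of these data known. Log2 ratios used the mean UMIs per 10000 with a pseudocount of 1 within each library. Named genes were the 12 called genes at each end by the smaller library difference, matched on detected genes, up to 8 at each end within clusters, 5 at each end between genotypes (at least 50 UMIs), and the list members. Clustering used Seurat 5.3.0 (2000 variable genes without Cdkn2a, 18 components, resolution 0.9). Scrublet (scanpy 1.11.5) marked 0.0666% and 0.215% of cells and so did not work as a doublet caller; median scores were 0.0780 and 0.0713 in Cdkn2a cells and 0.0780 and 0.0678 in matched zero cells, and leaving out the highest 5% of scores is an alternative. edgeR 4.0.16 (quasi-likelihood, Benjamini-Hochberg adjustment, each matched zero cell summed once) was an alternative, tested with the ratios on simulated data. The simulation changed only genes of higher mean and held counting noise only, so it does not cover changes in genes of low mean. Cdkn2a exons came from GENCODE vM21. Python 3.11.15, R 4.3.3, numpy 2.4.6, scipy 1.17.1, pandas 2.3.3 and matplotlib 3.10.9 were used. Exact intervals were Clopper-Pearson for shares and Poisson for UMIs, at 95%, and cover counting error only. The values of 1 list member are not reported here.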

Additional observations from a re-analysis of the deposited data

How the results depend on the processing

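Against all zero cells, 126 genes higher and 237 lower became 596 and 812 with a pseudocount of 0.1, and leaving out a library gave 167 to 269 and 275 to 325. Matched on detected genes, 35 and 130 became 266 and 541 with that pseudocount, and leaving out a library gave 98 to 135 and 168 to 232. Higher genes also went to 61 (only cells with at least 2 Cdkn2a UMIs), 59 (without cells that lack a reporter UMI) and 56 (nearest 1 cell). By edgeR at adjusted p under 0.05 they were 662 and 759 (33 of the 35 and all 130 among them). Within clusters, 3 and 5 became 62 and 84 with pseudocount 0.1, 10 and 12 by summed UMIs, 17 and 27 with at least 2 UMIs, 7 and 9 with the nearest 1 cell, 7 and 23 at resolution 0.45, 5 and 9 without cells of 5 or more Cdkn2a UMIs, 38 and 48 by edgeR, and 18 to 71 and 28 to 61 without a library. Mean log values gave 1 higher, leaving out cells without a reporter 9 lower, and leaving out the highest cell of each gene 14 lower. The contractile median within clusters, -0.0020, was -0.090 with at least 2 UMIs and -0.091 without the highest cells. The fibromyocyte median, 0.018, was 0.12 by mean log values, 0.036 with no detection minimum, -0.11 with at least 2 UMIs, -0.014 without the highest Scrublet scores, -0.023 without reporter-negative cells, 0.12 at resolution 0.45, 0.055 without cells of 5 or more UMIs, -0.020 without the highest cells, and 0.031 to 0.045 without a library. Thinning gave shares of 1.21% and 2.60%. The alternatives without cells of 5 or more UMIs and without the highest cell were chosen after seeing the data. The cause of these changes was not tested, beyond fewer libraries having to pass the fold. Of the 24 genes named at matched depth, each kept its direction in all these alternatives, and 2 fell under the fold in 1 each: Col8a1 by summed UMIs and Thbs1 with the nearest 1 cell. Leaving out a library or the detection minimum, or using the smaller pseudocount, cannot lose a gene called in both libraries, so these settings are no check. Within clusters Chad turned with at least 2 UMIs, and Tmsb10, Tgfb2, Igfbp5, Alcam and Chad each fell under the fold in at least 1 alternative, while Hp, Mt1 and Mt2 did in none. Cell classes were paired within libraries in the edgeR fit, which has library as a block. No paired analysis was possible between genotypes, because each has 1 library. Depth limits low genes: most Cdkn2a cells rest on 1 to 4 UMIs, and zero cells can hold transcripts that were not captured.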

Other observations

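A recombined Confetti allele marks a cell and its descendants with 1 fluorescent protein, and the 4 reporter transcripts are listed as genes. The number of Confetti alleles in these mice was not given in the sources used here. UMIs of more than 1 reporter were found in 7 of 49 and 18 of 56 Cdkn2a cells and in 489 of 1453 and 331 of 873 zero cells. A reporter UMI can therefore not be read as the only label of its cell. The cause of the several reporters was not tested, and no share of background UMIs was known. The red reporter tdimer2-12 was singled out after its values were seen. It was detected in 27 of 49 ApoE-/- Cdkn2a cells (55.1%, exact binomial 95% interval 40.2 to 69.3), against 20.3% of all zero cells (18.3 to 22.5), 20.8% of zero cells matched on detected genes (14.7 to 27.9) and 22.7% of those matched within clusters (16.1 to 30.5). In the Trf2T188A/ApoE-/- library it was detected in 24 of 56 Cdkn2a cells (42.9%, 29.7 to 56.8), against 22.8%, 22% and 28.8%. Among fibromyocyte-like cells of the ApoE-/- library, 19 of 31 with Cdkn2a (61.3%, 42.2 to 78.2) and 32 of 131 without (24.4%, 17.3 to 32.7) had the reporter, and in the Trf2T188A/ApoE-/- library 17 of 34 (50%, 32.4 to 67.6) and 25 of 95 (26.3%, 17.8 to 36.4). Chondrocyte-like cells had the reporter in 5 of 8 with Cdkn2a and 22 of 73 without in the ApoE-/- library. In the Trf2T188A/ApoE-/- library these shares were close, at 6 of 11 (54.5%, 23.4 to 83.3) and 25 of 52 (48.1%, 34.0 to 62.4). Of the 13 ApoE-/- cells of 5 or more Cdkn2a UMIs, 9 had it. EYFP was found in 18.4% of ApoE-/- Cdkn2a cells and 51.1% of zero cells, and mCerulean in 10.2% and 37.5%, while in the Trf2T188A/ApoE-/- library these shares were 35.7% and 50.1%, and 33.9% and 41.0%. Cells of 1 library share mice and clones, so these cells are not independent, and no cause of the difference was tested.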
